A study of Tradescantia spathacea with 6 samples.

Results

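In leaves of Tradescantia spathacea, 9 components of the transcriptome assembly each held a pair of genes whose transcript levels differed between lights in opposite directions. A component is a set of assembled sequences that the assembler kept together because they share stretches of sequence. The members were selected on the measured levels. A gene counted as sun-high where its lowest full sunlight library was at least 1.5 times its highest low light library, in CPM, the gene's share of all counts of the library scaled to a sum of 1000000. It counted as shade-high where its lowest low light library was at least 1.5 times its highest full sunlight library. Among genes with a mean of 2 to under 500 CPM over the 6 libraries, all sun-high and shade-high genes of a component with at least 1 of each were members. There were 18 such genes of 91987 in the table, 9 sun-high and 9 shade-high, and each component held exactly 1 of either kind.

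The full sunlight group (FL) was 3 leaf RNA-seq libraries of plants grown for 2 years under full sun, taken as 100% light. The low light group (LL) was 3 leaf libraries of plants grown for the same 2 years at 30% of that light. The labels name no cultivar, plant, leaf age or batch, so the spread between replicates may be technical. The table pairs its identifiers with no gene names, and the leaf label could not be checked against marker genes. Libraries held 14748349 to 15958899 counts, so 2 CPM corresponds to about 30 reads. All identifiers begin with the assembler's prefix TRINITY_, which is left out here; the ending g and its number is the gene within the component.

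Sun and shade leaves of one species are known to differ in photosynthetic machinery, light-screening pigments and leaf structure, and this acclimation draws on many genes. Plant genes often come in families, through duplication of single genes or whole genomes, and the copies can keep similar sequence while their promoters respond differently. A short-read assembler can place such copies in one component, and equally alleles, splice forms that it failed to join, or pieces of a single transcript. The submitters' processing notes name the program RSEM, which divides reads among similar transcripts by their likelihood. The counts are taken here to be its estimates. Entries of one component can share reads, so the levels of all genes below are uncertain to that extent, and how much each pair shares was not tested.

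Of the 4136 components with at least 2 genes in the level range of 2 to under 500 CPM, 9 held an opposite pair. That number depended on the threshold, with 1 component at a separation of 2 times and 302 at any separation. How many pairs the shares of either kind alone would give was not tested. Of 28116 genes in the level range, 1279 (4.55%) were sun-high and 781 (2.78%) shade-high. With CPM scaled by TMM factors, described below, the same rule gave 725 sun-high and 1179 shade-high genes. Which kind was the more frequent thus depended on scaling. There were 65304 components, of which 17774 had at least 2 entries, and the largest had 8. In 64 components at least 2 genes met either criterion. All of them were sun-high in 30 components and shade-high in 25, while 9 held both kinds. These 9 had 2 to 6 entries, 32 in all, so 14 entries were non-members. Since the rule used the contrast of both lights, levels under both lights are given here as a description, with no test.

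DN24884_c0 showed the widest separation in both directions. Its sun-high gene, DN24884_c0_g1, stood at 31.0, 26.3 and 27.2 CPM in full sunlight replicates 1 to 3, against 5.83, 6.75 and 5.88 CPM in low light replicates 1 to 3. The shade-high gene, DN24884_c0_g3, stood at 3.39, 3.51 and 3.94 CPM in full sunlight, against 12.5, 20.2 and 15.9 CPM in low light. Both genes thus differed more than 4-fold in their means, 4.57-fold higher for g1 and 4.48-fold lower for g3 in full sunlight. The third entry, DN24884_c0_g2, was at 21.5 to 28.3 CPM in full sunlight and 22.8 to 28.6 CPM in low light, and its ranges overlapped. The g1 gene held 88.6% ± 1.43 of the pair's CPM in full sunlight, against 27.9% ± 3.45 in low light (SD, n = 3 each). Requiring a 2-fold separation in place of 1.5 left DN24884_c0 as the single component with both kinds. In bulk leaf RNA, fewer cells of a type and less RNA per cell cannot be told apart, for this pair and all that follow.

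The component with the most entries, 6, was DN7054_c0. Its sun-high gene DN7054_c0_g2 stood at 39.2, 32.8 and 46.5 CPM in full sunlight, against 3.51, 18.0 and 6.48 CPM in low light. Low light replicate 2 lay well above the other two low light libraries. The shade-high gene DN7054_c0_g5 stood at 2.17, 6.33 and 6.22 CPM in full sunlight, against 14.0, 14.1 and 13.0 CPM in low light, with full sunlight replicate 1 the lowest. Of the 4 non-members, DN7054_c0_g3 came closest to the rule, with 6.10 to 11.2 CPM in full sunlight and 16.1 to 19.4 CPM in low light. DN7054_c0_g4 was at 14.4, 35.9 and 27.8 CPM in full sunlight and 36.1, 36.8 and 39.0 CPM in low light. As with g5, its lowest value was in full sunlight replicate 1. DN7054_c0_g1 and DN7054_c0_g7 overlapped between lights, at 6.44 to 17.5 CPM in full sunlight and 9.61 to 14.0 CPM in low light.

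In DN841_c0, the sun-high gene DN841_c0_g2 was nearly even across the full sunlight libraries, at 32.2, 31.0 and 30.6 CPM, and stood at 12.7, 17.2 and 11.3 CPM in low light. The shade-high gene DN841_c0_g1 stood at 6.71, 4.26 and 7.62 CPM in full sunlight, against 16.0, 18.2 and 24.8 CPM in low light. The gene with more reads thus changed with the light: g2 held 83.6% ± 3.99 of the pair's CPM in full sunlight, against 41.3% ± 8.99 in low light. Neither member was the main entry of its component. That was the non-member DN841_c0_g4, at 54.9 ± 4.91 CPM in full sunlight and 52.1 ± 10.2 CPM in low light (SD, n = 3).

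DN25044_c0 held a weakly expressed pair. Its sun-high gene DN25044_c0_g2 stood at 7.80, 5.26 and 4.88 CPM in full sunlight, against 2.39, 2.81 and 2.54 CPM in low light. The shade-high gene DN25044_c0_g1 stood at 1.76, 2.57 and 2.47 CPM in full sunlight, against 4.97, 6.28 and 6.68 CPM in low light. The group means mirrored each other: g2 averaged 5.98 CPM in full sunlight, against 2.58 in low light, and g1 averaged 2.27 CPM in full sunlight, with 5.98 in low light. The smallest of these values rest on 26 reads (g1, full sunlight replicate 1) and 36 reads (g2, low light replicate 1). The non-member DN25044_c0_g3 had more reads than the pair, with 16.5 ± 1.33 CPM in full sunlight and 14.9 ± 2.22 CPM in low light.

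DN635_c0 paired genes of very different length. The sun-high gene DN635_c0_g3 stood at 35.0, 29.5 and 30.5 CPM in full sunlight, against 17.0, 16.7 and 17.2 CPM in low light, a tight group of low light values. The shade-high gene DN635_c0_g2 stood at 30.2, 35.6 and 38.1 CPM in full sunlight, against 71.0, 79.3 and 87.3 CPM in low light. In full sunlight the pair had similar read numbers, 31.6 ± 2.94 CPM for g3 and 34.6 ± 4.05 CPM for g2. The non-members DN635_c0_g1 and DN635_c0_g4 overlapped between lights, with means of 17.3 and 40.0 CPM in full sunlight and 19.0 and 36.1 CPM in low light.

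In DN3731_c0, the sun-high gene had 19.7 times the mean CPM of the shade-high gene. DN3731_c0_g1 stood at 162, 143 and 175 CPM in full sunlight, against 84.3, 54.0 and 55.8 CPM in low light. DN3731_c0_g2 stood at 1.90, 4.76 and 1.27 CPM in full sunlight, against 8.88, 8.15 and 9.28 CPM in low light. Its full sunlight values rest on 28, 76 and 19 reads, and replicate 2 was the highest of them. Both were small beside the non-member DN3731_c0_g3, which stood at 1975, 1132 and 1780.4 CPM in full sunlight and 641, 943 and 820.1 CPM in low light. That entry lies above the level range of the rule. It was higher in all 3 full sunlight libraries, but the lowest of them was 1.20 times the highest low light library.

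DN4423_c1 held the most abundant shade-high member. DN4423_c1_g2 stood at 92.9, 188 and 109 CPM in full sunlight, against 381, 289.6 and 406 CPM in low light. Full sunlight replicate 2 and low light replicate 2 lay nearest to the other light. The sun-high gene DN4423_c1_g3 stood at 106, 88.6 and 108 CPM in full sunlight, against 28.1, 47.2 and 31.9 CPM in low light, where replicate 2 again lay nearest. DN4423_c1_g2 held 53.3% ± 11.6 of the component's CPM in full sunlight, against 89.7% ± 4.27 in low light (SD, n = 3). The remaining entry, DN4423_c1_g1, had 5.39 to 8.56 CPM in full sunlight and 3.18 to 4.81 CPM in low light.

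DN41140_c0 and DN761_c0 were the pairs with the narrowest separation. DN41140_c0_g2, sun-high, stood at 4.95, 4.01 and 4.75 CPM in full sunlight, against 2.52, 2.61 and 2.47 CPM in low light. Its shade-high partner DN41140_c0_g3 stood at 5.02, 5.95 and 5.41 CPM in full sunlight, against 17.3, 14.7 and 14.6 CPM in low light. The pair was thus close to even in full sunlight, and g3 dominated in low light. The non-member DN41140_c0_g1 was barely read, with 0 to 10 reads per full sunlight library and 3 to 7 per low light library. In DN761_c0, which had no other entry, the sun-high gene DN761_c0_g2 stood at 105, 130.4 and 141 CPM in full sunlight, against 69.5, 66.2 and 63.9 CPM in low light. The shade-high gene DN761_c0_g1 stood at 48.6, 51.3 and 43.1 CPM in full sunlight, against 90.4, 80.3 and 114 CPM in low light. The larger member was g2 in each full sunlight library and g1 in each low light library.

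**Figure D1:**
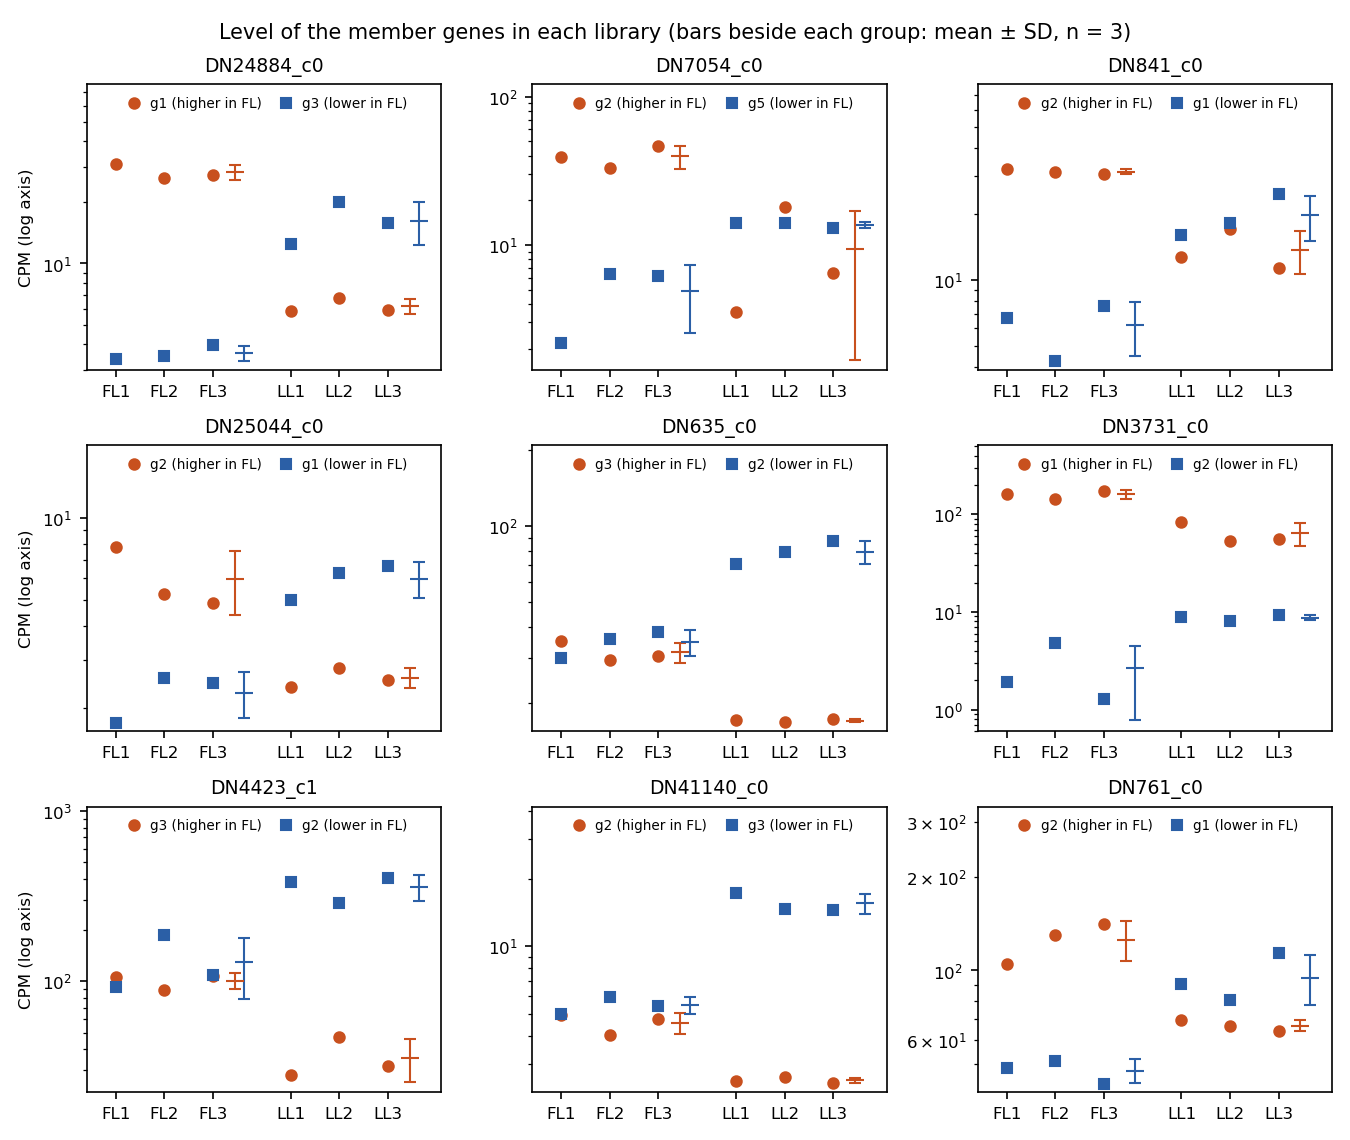
CPM (log axis) of the sun-high gene (orange circles) and the shade-high gene (blue squares) of each of the 9 components in the 3 full sunlight (FL) and 3 low light (LL) libraries, with mean ± SD (n = 3) beside each group. No member's groups overlap, as the rule requires; the circles of DN7054_c0 range widest within low light, at 3.51, 18.0 and 6.48 CPM.

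The members nearest to the threshold show how finely it divides. DN761_c0_g2, with a separation of 1.51, and DN41140_c0_g2, with 1.54, were the members just inside 1.5. Just outside were DN3082_c1_g3 and DN1639_c0_g1, whose partners met the rule in the opposite direction. DN3082_c1_g3 had a separation of 1.49, with 17.6, 14.1 and 12.6 CPM in full sunlight and 7.09, 5.61 and 8.48 CPM in low light. DN1639_c0_g1 had a separation of 1.47, with 14.0, 17.7 and 14.7 CPM in full sunlight and 26.0, 37.0 and 32.4 CPM in low light.

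Across the 18 members, folds of means ran from 1.80 (DN41140_c0_g2) to 4.57 (DN24884_c0_g1) higher in full sunlight among sun-high genes. Without low light replicate 2, DN7054_c0_g2 was 7.90-fold higher in full sunlight, against 4.24-fold with all 6 libraries. Among shade-high genes they ran from 1.99 (DN761_c0_g1) to 4.48 (DN24884_c0_g3) higher in low light. Full sunlight replicate 2 was the full sunlight library nearest to low light for 6 of 9 sun-high members and 6 of 9 shade-high members. It was so for 66.5% of all 1279 sun-high genes and 69.8% of all 781 shade-high genes of the table. Low light replicate 2 was the low light library nearest to full sunlight for 6 of the 9 sun-high and 3 of the 9 shade-high members. The table-wide shares were 50.1% of sun-high and 45.6% of shade-high genes.

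A quasi-likelihood test of the counts over all 40084 genes with enough reads (edgeR, Benjamini-Hochberg adjusted p under 0.05) called 8 of the 9 sun-high members higher in full sunlight. It called 9 of the 9 shade-high members lower. Of all genes tested, 6.77% were called higher and 8.63% lower. The members were chosen on the same counts, so nothing is read from this difference. Without full sunlight replicate 3, or without low light replicate 3, it called 5 of the 9 sun-high members. Calls of higher genes over the whole table were 942 and 933 in these fits, against 2714 with all 6 libraries. The exception over all 6 libraries was DN41140_c0_g2, at 0.67 ± 0.25 (SE) on the log2 scale and an edgeR adjusted p of 0.093. This test scales the libraries by TMM, the trimmed mean of M values, which places full sunlight lower relative to low light than CPM does. The median log2 fold change of all genes was 0.02 with TMM and 0.20 with library size alone. Of the 13 non-members tested, 2 were called, DN7054_c0_g3 as lower and DN3731_c0_g3 as higher in full sunlight.

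The summed level of a component counts the reads of all its entries and does not depend on how reads were divided among them. In 6 of 9 components the sum differed by less than 1.5-fold between lights, as it did in 79.7% of the 4136 components with at least 2 genes in the level range. Opposite members partly cancel in a sum by construction, so nothing is read from this count. DN24884_c0 summed to 56.6 ± 3.49 CPM in full sunlight and 48.8 ± 2.24 CPM in low light (SD, n = 3 each). DN7054_c0 summed to 100.5 ± 13.0 CPM in full sunlight and 102 ± 6.69 CPM in low light, and DN841_c0 to 99.5 ± 6.78 CPM in full sunlight and 95.1 ± 8.90 CPM in low light. The sums of DN25044_c0 were 24.8 ± 0.509 CPM in full sunlight and 23.5 ± 3.22 CPM in low light. DN635_c0 summed to 124 ± 8.56 CPM in full sunlight and 151 ± 7.03 CPM in low light, and DN761_c0 to 173 ± 16.9 CPM in full sunlight and 161 ± 15.6 CPM in low light. In 4 of these 6, DN7054_c0, DN841_c0, DN25044_c0 and DN761_c0, the sums of both lights overlapped.

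The other 3 sums differed in the same direction as the component's most abundant entry by mean CPM. DN3731_c0 summed to 1792 ± 453 CPM in full sunlight and 875 ± 136 CPM in low light, a 2.05-fold difference, most of it in the non-member DN3731_c0_g3. DN4423_c1 summed to 238 ± 39.0 CPM in full sunlight and 399 ± 51.4 CPM in low light, 1.68-fold lower in full sunlight. DN41140_c0 summed to 10.3 ± 0.266 CPM in full sunlight and 18.4 ± 1.63 CPM in low light, 1.79-fold lower in full sunlight. In both of these, the most abundant entry was the shade-high member.

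In all, the sums of 5 components did not overlap between lights, 2 with full sunlight above and 3 with it below. Among the 4136 components, 37.0% had sums above and 12.3% below in full sunlight without overlap. These shares are for CPM, with which the median log2 ratio of the 4136 sums was 0.18. No shares with TMM are given for them. The median absolute log2 ratio of sums, with CPM, was 0.21 in the 9 components and 0.31 in the 4136. Nothing is read from this difference either, since opposite members partly cancel in a sum by construction. The direction of small differences depended on scaling. With TMM the log2 ratio of sums was -0.12 for DN841_c0, -0.10 for DN25044_c0 and -0.07 for DN761_c0, against 0.07, 0.08 and 0.10 with CPM. DN24884_c0 then overlapped between lights, with a log2 ratio of 0.03 against 0.21 with CPM. The sums of DN635_c0, DN4423_c1 and DN41140_c0 stayed below, and that of DN3731_c0 above, in full sunlight without overlap.

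**Figure D2:**
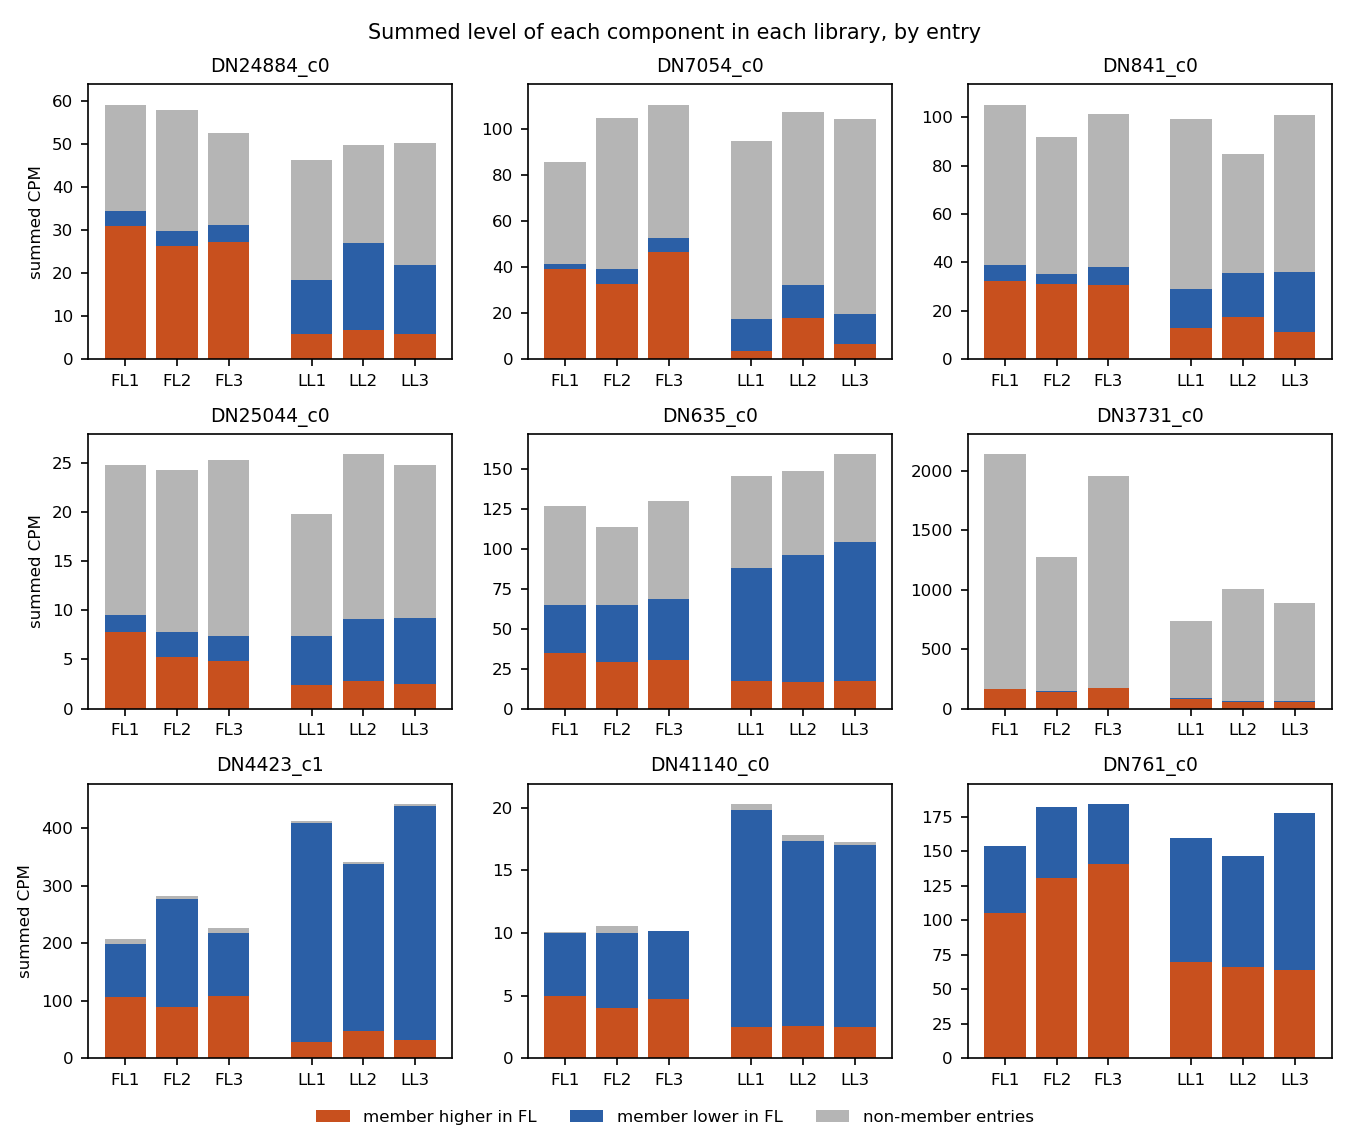
Summed CPM (axis from 0) of each component in the 3 full sunlight (FL) and 3 low light (LL) libraries, divided into the sun-high member (orange), the shade-high member (blue) and the non-member entries (grey). In DN761_c0 the bars reach similar heights in both lights while orange and blue trade places; in DN3731_c0 the grey non-member makes up most of every bar.

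**Figure D3:**
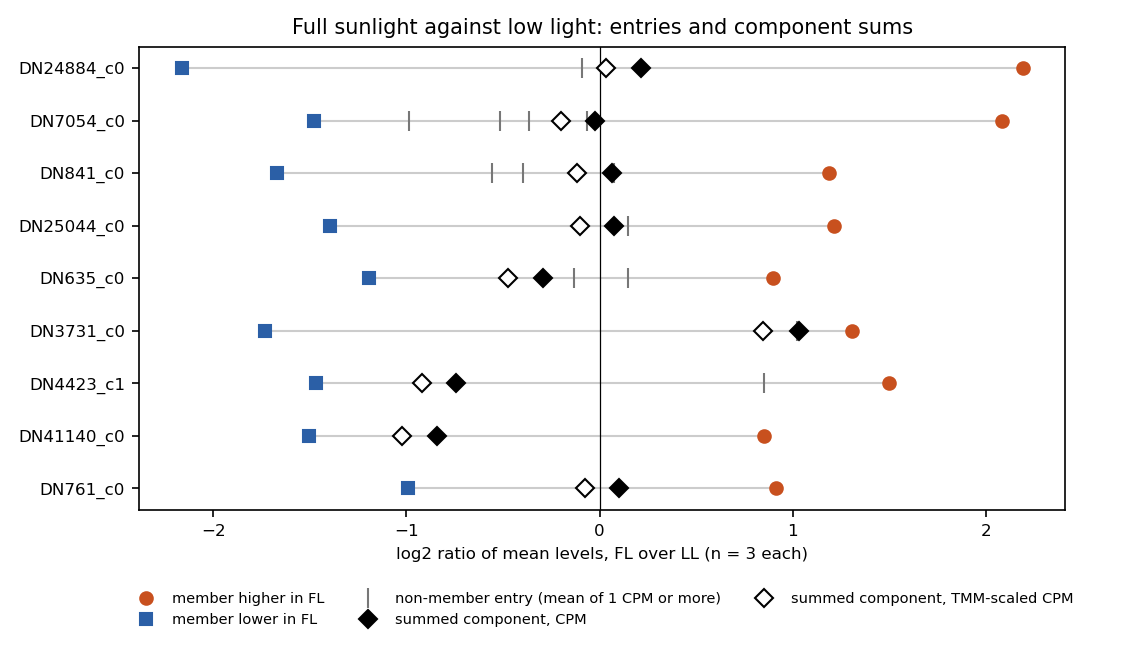
Log2 ratio of mean levels, full sunlight (FL) over low light (LL), for each component's sun-high gene (circle), shade-high gene (square), non-member entries with a mean of at least 1 CPM (ticks) and sum (filled diamond for CPM, open diamond for TMM-scaled CPM). The sums lie between their members; for DN841_c0, DN25044_c0 and DN761_c0 they lie on opposite sides of 0 with CPM and TMM.

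The differences in mean CPM between lights of a pair's members were close in size in some pairs and unequal in others. In DN25044_c0 the sun-high gene had 3.40 CPM more in full sunlight and the shade-high gene 3.71 CPM more in low light. In DN841_c0 the differences were 17.5 CPM for the sun-high gene and -13.5 CPM for the shade-high gene, full sunlight minus low light. In DN761_c0 they were 59.0 and -47.2 CPM. The differences were 22.0 and -12.6 CPM in DN24884_c0, 30.2 and -8.78 CPM in DN7054_c0, and 14.7 and -44.6 CPM in DN635_c0. They were far from equal in DN3731_c0, at 95.4 and -6.13 CPM, in DN41140_c0, at 2.04 and -10.1 CPM, and in DN4423_c1, at 65.2 and -229 CPM.

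By CPM, non-members together hardly differed between lights in DN635_c0 and offset the pair's difference in DN7054_c0. The non-members of DN635_c0 together stood at 57.3 ± 7.32 CPM in full sunlight and 55.0 ± 2.40 CPM in low light. In DN7054_c0, the pair alone had 44.4 ± 7.25 CPM in full sunlight and 23.0 ± 7.92 CPM in low light. Its 4 non-members together had 56.1 ± 10.8 CPM in full sunlight and 79.2 ± 4.99 CPM in low light, which brought the summed CPM to near equality. The log2 ratio of sums of DN7054_c0, full sunlight over low light, was -0.02 with CPM. It was -0.20 with TMM and -0.36 with summed FPKM, a level per length, so near equality held for CPM alone.

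Effective length is the number of positions from which a fragment can start in a transcript. It was taken from the ratio of count to FPKM (fragments per kilobase of effective length, scaled to the library's size), taking that size to be the library's total count. The rule did not use it directly, but it used CPM, which grows with effective length at a given FPKM. The members' median effective length was 2017 bases, with quartiles of 933 and 3327, against 1053 bases, with quartiles of 596 and 1644, for all 28116 genes in the level range. No test was made of this difference. Members can come only from components with at least 2 genes in the level range, and lengths of such components' genes alone were not compared. The sun-high members had a median of 2366 bases (range 775 to 6618) and the shade-high members 980.2 bases (range 321 to 4715). Sun-high genes of other components, 1270 in number, had a median of 1098 bases, and the 772 shade-high genes of other components one of 960.2 bases. In level, the members had a median of 19.8 mean CPM, against 11.7 for all genes in the level range. Their median of mean FPKM was 10.3, against 13.3 for all genes in the level range.

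The sun-high gene was the longer member in 6 of 9 pairs. The difference was largest in DN635_c0, where DN635_c0_g3 had 3426 bases and DN635_c0_g2 had 321. DN3731_c0_g1 had 1987 bases and DN3731_c0_g2 had 439. In DN841_c0 the lengths were 3834 bases for the sun-high gene and 1267 for the shade-high gene, in DN7054_c0 they were 2366 and 917, in DN25044_c0 1462 and 825, and in DN761_c0 6618 and 4715. The shade-high gene was the longer one in DN24884_c0 (2046 bases for the sun-high and 3029 for the shade-high gene), DN4423_c1 (2709 and 3441) and DN41140_c0 (775 and 980.2). The median ratio of sun-high to shade-high length was 1.77. Whether a short entry is a complete transcript or a fragment is not known from the table.

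Which member of a pair was the more abundant depended on whether levels were taken per length. By mean CPM over 6 libraries the sun-high gene was the larger in 6 of 9 pairs, and by mean FPKM, a level per length, in 3 of 9. The count by CPM was 5 of 9 when any 1 full sunlight library was left out. DN635_c0 showed the greatest gap per length. There the short shade-high gene averaged 106 ± 13.3 FPKM in full sunlight and 249 ± 25.7 FPKM in low light, and the long sun-high gene 9.14 ± 1.01 FPKM in full sunlight and 5.00 ± 0.137 FPKM in low light (SD, n = 3). The sun-high gene was the larger per length in DN24884_c0, DN7054_c0 and DN3731_c0. In DN7054_c0 (10.3 and 10.1 FPKM) and DN761_c0 (14.5 and 15.2 FPKM) the sun-high and shade-high members had nearly the same mean.

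Per length, 6 of 9 pairs changed their larger member with the light by the mean share of FPKM: the sun-high gene was the larger in full sunlight and the shade-high gene in low light. In 5 of them each library followed this order. The sixth was DN41140_c0, whose sun-high gene held 53.9% ± 7.81 of the pair's FPKM in full sunlight, against 16.8% ± 1.28 in low light. The share was 92.5% ± 1.36 in full sunlight, against 36.5% ± 4.25 in low light for DN24884_c0. For DN7054_c0 it was 76.3% ± 10.1 in full sunlight, against 19.3% ± 11.9 in low light. For DN841_c0 it was 63.2% ± 6.90 in full sunlight, against 19.0% ± 5.24 in low light. In DN41140_c0 the sun-high gene was the larger in 2 of 3 full sunlight libraries and in none of low light. DN4423_c1 showed the same order in the same number of libraries, but its mean share fell just short of even: the sun-high gene held 49.3% ± 10.4 in full sunlight, against 11.7% ± 4.81 in low light. Full sunlight replicate 2 was the exception in both pairs. One member was the larger in every library in DN3731_c0, the sun-high gene, and in DN635_c0, the shade-high gene.

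**Figure D4:**
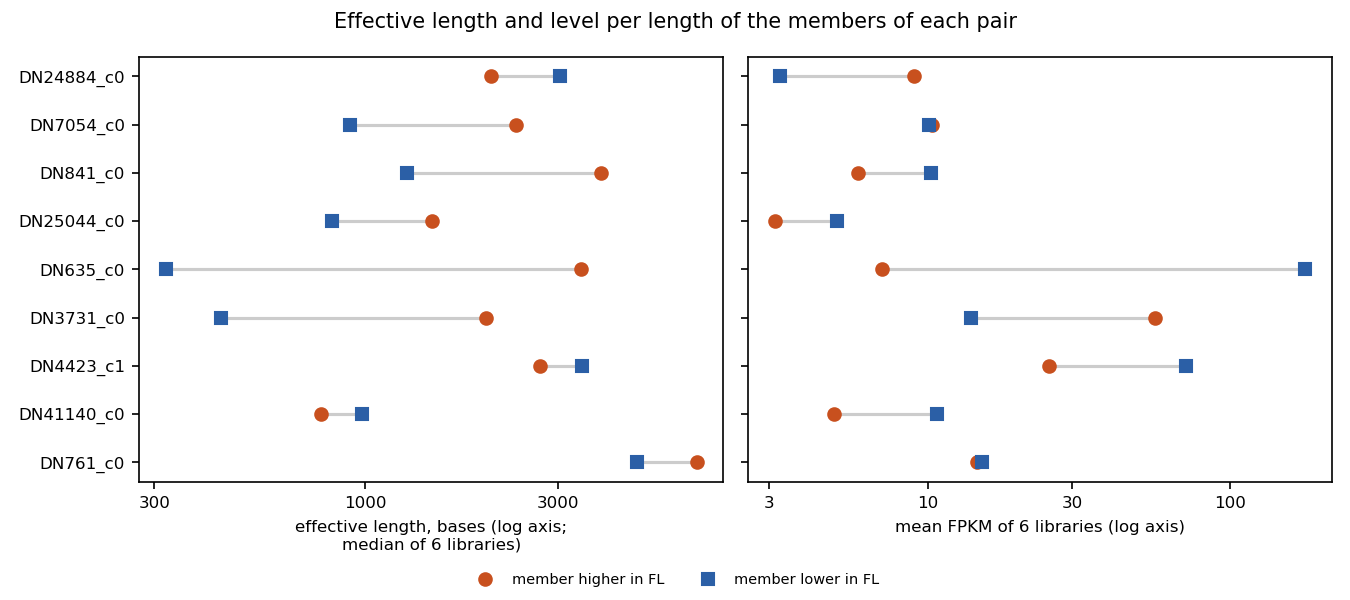
Effective length in bases (left, log axis, median of 6 libraries) and mean FPKM over 6 libraries (right, log axis) of the sun-high gene (circle) and the shade-high gene (square) of each component. The circle lies right of the square in 6 of 9 pairs for length and in 3 of 9 for FPKM; DN635_c0 has the widest gap in both panels.

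An entry's effective length can differ between libraries where its reads are spread differently over transcript forms of unequal length, and it shifts slightly with the fragment sizes of a library. The median gene in the level range had 1047 to 1062 bases across the full sunlight libraries, against 1041 to 1044 across those of low light. Across all genes in the level range, the change in mean length, full sunlight over low light, had a median of 1.71%. The 5th and 95th percentiles of this change were -14.9% and 21.7%. Lengths of 15 members differed by -7.91% to 2.47%. The other 3 of 18 members (16.7%) differed by over 10%, as did 21.7% of all genes in the level range.

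These 3 were among the weakly expressed members. DN25044_c0_g2 had 1431, 1113 and 1235 bases in full sunlight and 1940.3, 1493 and 1659 bases in low light, so all 3 full sunlight values were below all low light values. Its level per length was therefore 3.05-fold higher in full sunlight, against 2.32-fold in CPM. DN3731_c0_g2 had 312, 301 and 458 bases in full sunlight and 439.6, 472 and 439.0 bases in low light, with overlap. Per length it was 2.38-fold lower in full sunlight, against 3.32-fold in CPM. Without full sunlight replicate 2 these folds were 4.41 per length and 5.54 in CPM. Its FPKM ranges did not reach the 1.5-fold separation, since full sunlight replicate 2 had 15.8 FPKM and the lowest low light library 17.3 FPKM. DN41140_c0_g2 had 601, 767 and 756 bases in full sunlight and 782, 797 and 787 bases in low light, and full sunlight replicate 1 was the farthest below the rest. Of the non-members, DN841_c0_g4 differed by over 10% too, with a mean of 1435 bases in full sunlight, against 1274 in low light.

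Among better expressed members, the length of DN24884_c0_g1 was 1749 and 1806 bases in full sunlight replicates 1 and 3, but 2119 in replicate 2, against 2039.8 to 2070 bases in low light. DN4423_c1_g2 had 3083, 3428 and 3226 bases in full sunlight and 3453 to 3482 bases in low light. In both genes, full sunlight replicate 2 was the library closest in length to low light.

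**Figure D5:**
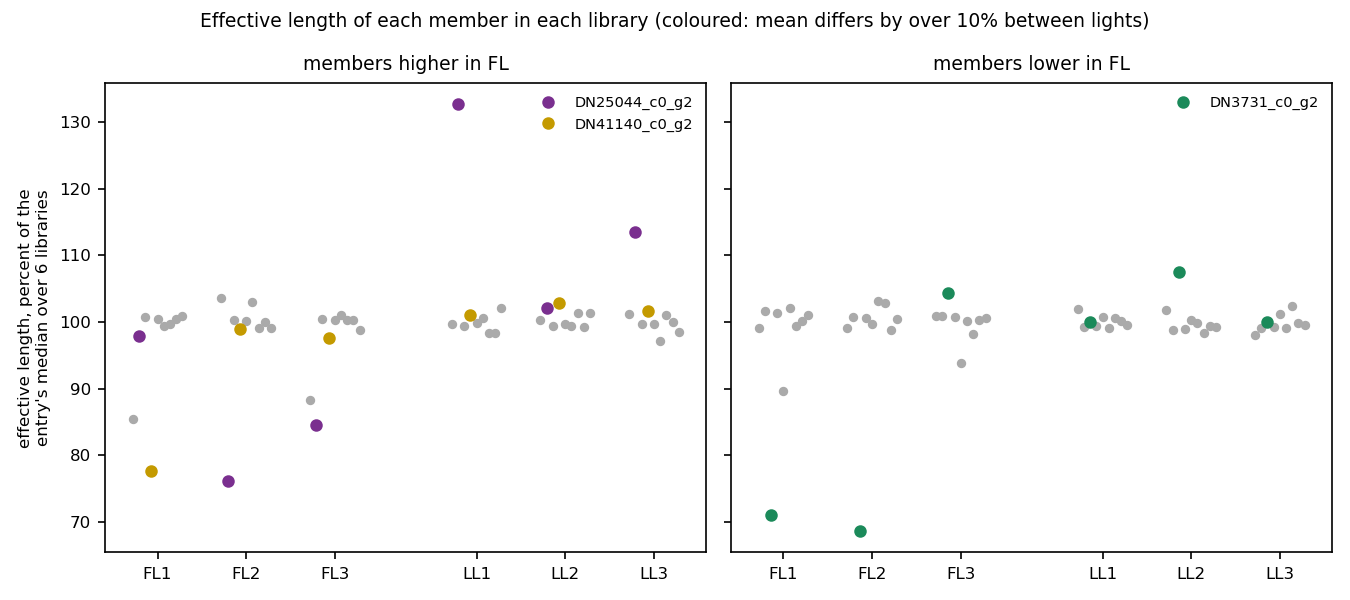
Effective length of each member in each full sunlight (FL) and low light (LL) library as a percent of that gene's median over 6 libraries, for sun-high members (left) and shade-high members (right). The coloured genes differ by over 10% between the means of both lights; DN25044_c0_g2 ranges from 76.1% to 133%, while most grey points lie close to 100%.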

How the data were processed

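Leaf RNA-seq libraries, 3 from full sunlight and 3 from 30% light, were grouped by their titles. The authors' deposited table holds an estimated count per assembled gene, in whole numbers, and its FPKM per library. RSEM appears, with no version, among the tools of the submitters' processing notes; aligner, assembly settings and read filters are not stated there. FPKM, per the file headers, is the authors' value per length and library size.

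From these, CPM (count over the library's total count), separations, sums per component and effective lengths were computed with Python 3.11.15 and pandas 2.3.3. The component is the identifier up to its gene number. All entries were tested together with edgeR 4.0.16 in R 4.3.3 (filterByExpr, TMM, quasi-likelihood F test, no block), which kept 40084 genes with 99.2% of counts. No 2 libraries of a group agreed within sampling noise (chi-square per degree of freedom at least 10.0). A count of 0 allows up to 3 reads. Scripts were tested on simulated data. Members and comparisons were chosen with earlier results of these data known. By rule, components were named for separation, summed level, balance of sums and number of members, which took in all 9. Alternatives covered scaling, thresholds, FPKM, DESeq2 1.42.0, limma 3.58.1, filters, a block and leaving out each library.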

Additional observations from a re-analysis of the deposited data

How the results depend on the processing

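The 9 components became 7 with TMM-scaled CPM (without DN41140_c0 and DN761_c0), 9 with FPKM ratios (7 of them shared; DN3731_c0 and DN761_c0 were replaced), 7 with a lower limit of 5 CPM and 9 with no upper limit. A separation of 2 times left 1, any separation gave 302 and a lower limit of 1 CPM gave 15. Leaving out each library gave 13 to 36 components, with all 9 among them each time; the highest came without full sunlight replicate 2, and leaving out low light replicate 2 gave 26 and low light replicate 3 gave 16. Fewer libraries make the rule easier to meet by construction. edgeR calls were 8 sun-high and 9 shade-high members with DESeq2 size factors, the DESeq2 test, limma-voom and no filter on low counts, and 9 and 9 with library size alone. Leaving out each library gave 5 to 8 sun-high calls, the lowest when replicate 3 of either light was left out, and 8 to 9 shade-high calls; over the whole table these fits gave 933 to 3767 higher and 1432 to 5209 lower calls. No member's log2 fold change turned in sign in any of these fits. The rule's separation of at least 1.5 times between all libraries of both lights left almost no room for that, so nothing is read from it. DN25044_c0_g2 lost its call under the replicate block, without full sunlight replicate 1 or 3 and without each low light replicate; DN7054_c0_g2 and DN761_c0_g2 lost theirs without replicate 3 of either light, and DN3731_c0_g2 without replicate 3 of low light. The cause was not tested. With the replicate block, 7 and 9 members were called, and 4625 genes of the table against 6173; libraries sharing a number did not deviate together (correlations of 0.01, -0.04 and -0.03). Without overlap between lights were 4 sums with TMM, 6 with FPKM, 6 over members only, 3 over non-members only and 5 to 6 when leaving out each library, against 5. The median length ratio was 1.77, and 2.80 over the 6 pairs in which both members had a mean of at least 5 FPKM; it was 1.48 from full sunlight libraries only and 2.03 from low light libraries only, and 1.72 to 1.82 leaving out each library, added after seeing the data. The median ratio of sun-high to shade-high level was 1.35 by CPM, 0.623 by FPKM, 1.32 with the sun-high gene in full sunlight set against the shade-high gene in low light, and 1.13 to 1.63 leaving out each library, also added later, as were the folds of means without each library. Medians over all sun-high or shade-high members of a component are not given apart, since each held 1 of either kind. Depth limits the weakest values, such as the 19 reads of DN3731_c0_g2 in full sunlight replicate 3.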
